A study of Mus musculus with 12 samples.

Results

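Dek silencing was judged here against a control that carried no hairpin. The Dek hairpin group held 3 libraries of primary entorhinal cortex (EC) neurons that had received AAV1-mCherry-U6-mDEK-shRNA. The empty vector group held 3 libraries that had received AAV1-hSyn1-mCherry-WPRE, the control of the overexpression experiment. Every gene with a symbol that passed the filter on low counts entered the comparison, 14286 of 24091 genes. The 3 libraries of AAV1-mCherry-U6-scrmb-shRNA, the scrambled hairpin control of the silencing experiment, were set beside many of the results. The overexpression group held 3 libraries that had received AAV1-hSyn1-mDEK-IRES-mCherry, which carries mouse Dek cDNA. They entered only where libraries were compared and in the alternative fit of all 12 libraries.

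All cultures came from the EC of C57BL/6J mouse embryos at embryonic day 17. They were transduced after 7 days in vitro with 1e+10 viral genomes of AAV (adeno-associated virus) per ml of medium and lysed 4 days later, and 200 ng of RNA was used per library. No other allele or agent was given for any group. A single hairpin was used. Each hairpin was transcribed from U6, a promoter that is not limited to neurons, whereas the empty vector carried hSyn1, a neuronal promoter. The hairpin, the vector backbone and the experiment all differed between the Dek hairpin and empty vector groups, so that their contributions cannot be told apart in this comparison. Replicates were wells of culture, and no source says if the wells in a group came from separate dissections, so p-values measure the spread between wells.

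DEK is an abundant nuclear protein that binds DNA and histones, bends and supercoils chromatin and acts as a chaperone of the histone variant H3.3. A short hairpin RNA enters the microRNA pathway: it is exported from the nucleus, cut by Dicer and loaded onto an Argonaute protein, which cleaves transcripts that pair with the guide along its length. A loaded guide can also lower other transcripts that pair only with the few bases of its seed, most often within the 3′ untranslated region (UTR). EC neurons relay signals between the neocortex and the hippocampus, and their cultures hold excitatory and inhibitory neurons together with some glia.

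The Dek hairpin, empty vector and scrambled groups each stood apart from the others. Tuba1c and 4 Y-linked genes are given as examples of transcripts whose levels differed between the silencing and the overexpression experiment. Counts summed to 15679567 to 17981481 per Dek hairpin library, 17078551 to 18555472 per empty vector library and 17126962 to 17932126 per scrambled library. On log2 CPM (CPM, a gene's count over 1e6 counts of its library scaled by TMM), libraries of one group correlated at a mean r of 0.991 within the Dek hairpin group and 0.994 within the empty vector group. Dek hairpin libraries correlated with empty vector libraries at 0.951 and with scrambled libraries at 0.966, and the scrambled with the empty vector libraries at 0.983. The tubulin gene Tuba1c lay between 2.22 and 3.56 CPM in the empty vector libraries and between 2.64 and 3.3 CPM in the overexpression libraries, against 77.7 to 97.2 CPM in the scrambled and 61.9 to 65.5 CPM in the Dek hairpin libraries. Y-linked transcripts, summed over 4 genes, lay between 92.5 and 112 CPM in the overexpression experiment and between 52.7 and 61.6 CPM in the silencing experiment. All 4 Y-linked genes were called lower in the Dek hairpin than in the empty vector libraries.

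Dek transcript was first examined at the site the hairpin was designed against. The 21 bases lie in the coding sequence of exon 6 of 11, on the minus strand at chr13:47099377-47099397 of GRCm38, the assembly also named mm10. The capitals mark bases 11 to 17 of the site, a heptamer that is followed through other genes at the end of the results.
Dek site: cgaactcgtgAAGAGGAtctt
Dek was at 7.96, 6.64 and 8.64 CPM in the Dek hairpin libraries. It was at 36.3, 39.0 and 41.4 CPM in the empty vector libraries and at 35.5, 36.8 and 36.6 CPM in the scrambled libraries. No Dek hairpin library overlapped a control library. The fall against the empty vector (log2FC = −2.32, SE 0.11, FDR = 1.9e-09, edgeR quasi-likelihood test with Benjamini-Hochberg adjustment over all genes tested, n = 3 wells per group) compares with −2.23 against the scrambled hairpin. The controls themselves differed in Dek by −0.10, which did not pass the test (FDR = 0.23). Fewer cells of a type and less RNA per cell cannot be told apart in such bulk libraries, for Dek or any other gene.

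**Figure D1:**
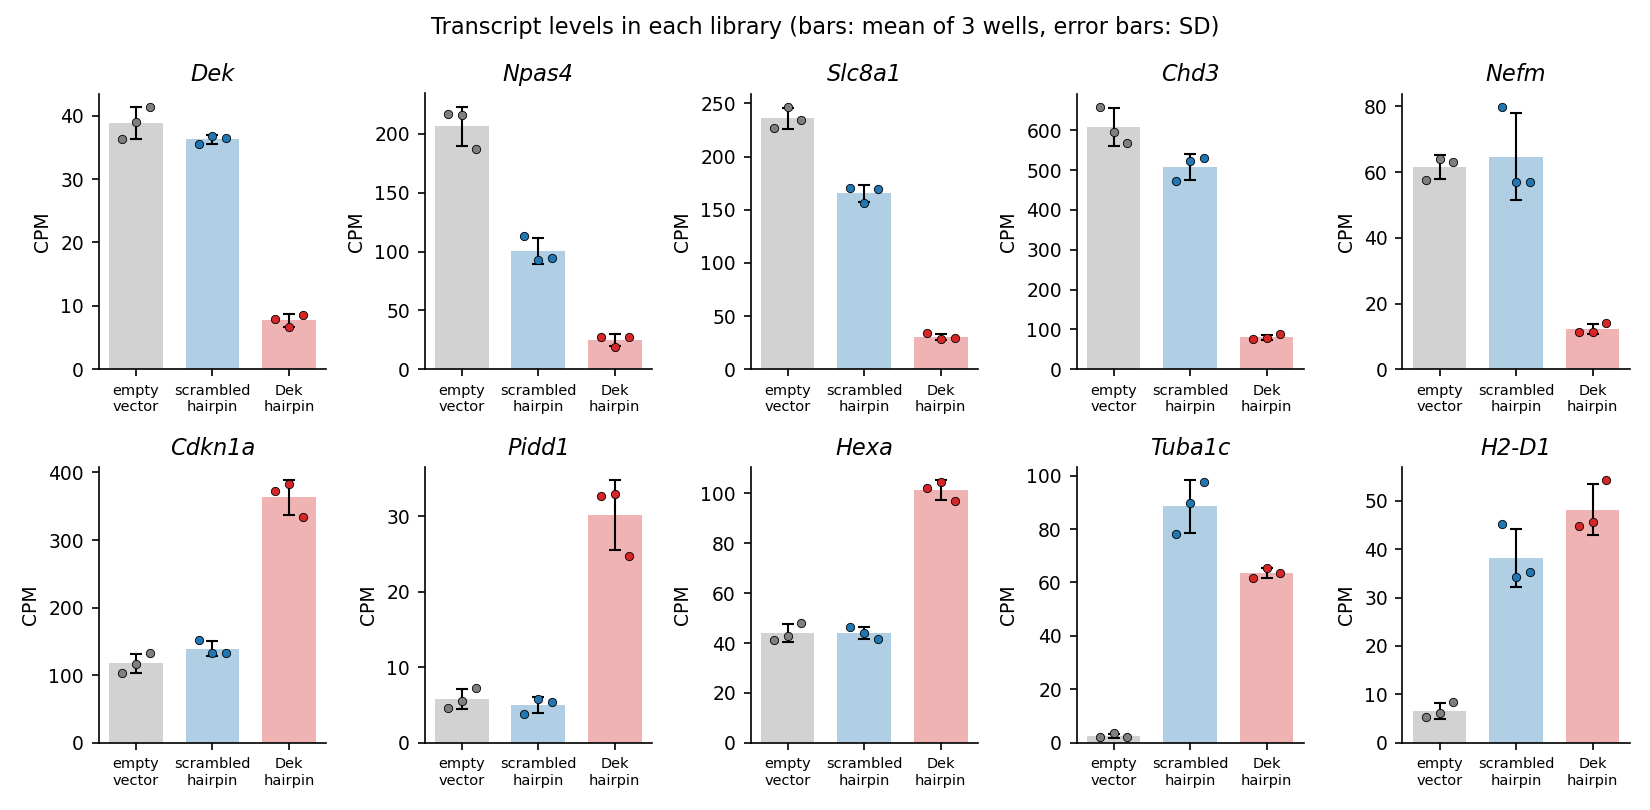
Transcript levels in CPM of 10 genes in each library, with bars for the mean of 3 wells, error bars for the SD and points for the wells of the empty vector, scrambled hairpin and Dek hairpin groups. Dek, Npas4, Slc8a1, Chd3 and Nefm lie lower in all 3 Dek hairpin wells than in all 6 control wells and Cdkn1a, Pidd1 and Hexa higher, whereas Tuba1c and H2-D1 are also high in the scrambled wells.

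Of the 14286 genes, 4857 were higher (34% of genes tested) and 4776 were lower (33.4%) in the Dek hairpin than in the empty vector libraries, together 67.4% of genes tested. A log2FC beyond 1 was reached by 1214 higher genes (8.5%) and 1210 lower genes (8.47%), and a log2FC beyond 2 by 153 and 141. The median log2FC of all genes was 0.022, the median of its absolute value 0.44 and the median SE 0.094, so that with calls on most genes a single call carries little and sizes were weighed against this background. When library totals replaced TMM, 5529 genes were called higher and 4234 lower, with a median log2FC of 0.095. The even split thus depended on the scaling. The scrambled libraries also differed widely from the same empty vector libraries, where the hairpin, the backbone and the experiment again cannot be told apart: they had 2994 higher genes (21.2%) and 3076 lower genes (21.8%) of 14090, together 6070. With GC and length offsets 4636 were called, with the replicate number as a block 4892, and with both 3359. Against the scrambled hairpin the Dek hairpin libraries had 3729 higher (26.2%) and 4058 lower genes (28.5%) of 14226, a split that turned to 4791 higher and 3207 lower when library totals replaced TMM. These comparisons share libraries, and their values are therefore given side by side only. All 3 Dek hairpin libraries lay above all 6 control libraries for 3495 genes (24.5%) and below all 6 for 3704 genes (25.9%), which is called outside both controls in what follows.

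**Figure D2:**
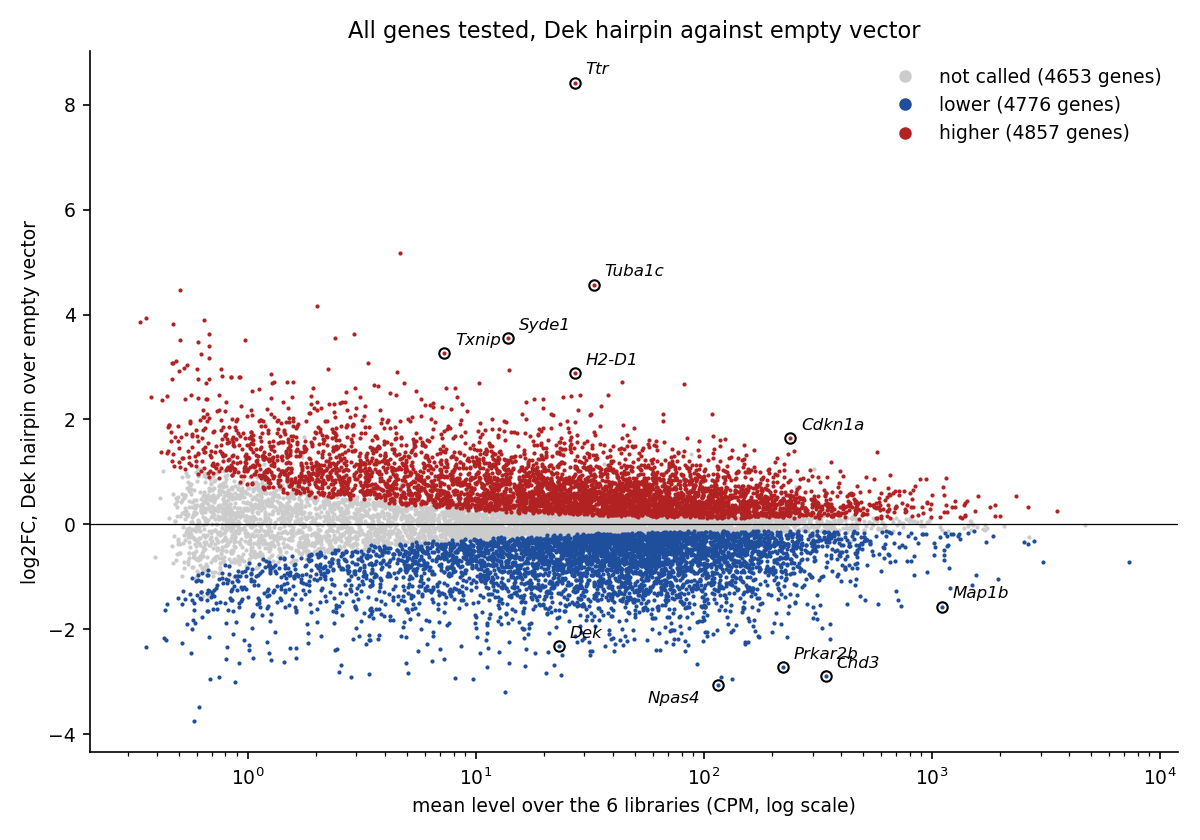
Every gene tested, with the mean level over the 6 libraries in CPM on a log scale against the log2FC of the Dek hairpin over the empty vector libraries. Genes called higher (4857) and lower (4776) at an FDR below 0.05 are coloured, genes not called (4653) are grey, and Ttr, Tuba1c and Syde1 lie at the top and Npas4, Chd3 and Prkar2b near the bottom.

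The largest falls reached genes of calcium handling, kinase signalling, chromatin remodelling and vesicle release. Slc8a1 encodes a sodium-calcium exchanger that expels calcium from the neuron (chr17:81373105-81738387, GRCm38.p6). It was at 34.0, 28.0 and 29.3 CPM in the Dek hairpin libraries and at 227, 247 and 234 CPM in the empty vector libraries (log2FC = −2.95, SE 0.074, FDR = 6.0e-11), with 170.3, 156 and 170 CPM in the scrambled libraries. Prkar2b, a regulatory subunit of protein kinase A (chr12:31958450-32061648), was at 64.2, 54.4 and 56.8 CPM with the Dek hairpin and at 384, 394 and 388 CPM with the empty vector (log2FC = −2.73, SE 0.065, FDR = 6.0e-11). In both genes the Dek hairpin libraries lay well below the scrambled ones, which were themselves modestly below the empty vector. Chd3, an ATPase of the NuRD chromatin remodelling complex (chr11:69343273-69369499), stood at 76.6, 77.8 and 88.0 CPM against 659.5, 597 and 568 CPM (log2FC = −2.90, SE 0.074, FDR = 6.0e-11). Doc2b, a calcium sensor of vesicle release, stood at 4.13, 4.74 and 5.92 CPM against 39.8, 36.3 and 31.2 CPM (log2FC = −2.84, SE 0.14, FDR = 3.0e-09). For Doc2b the scrambled libraries, at 32.8, 39.7 and 42.1 CPM, spanned the level of the empty vector. The other falls among the 12 largest included the coiled-coil gene Tmcc2 (−2.91), the membrane protein gene Lmbrd2 (−3.19) and the netrin-G1 gene Ntng1 (−2.95). The aminopeptidase gene Lnpep (−2.93), the glycosylation gene Alg10b (−2.88) and the microglial marker Aif1 (−2.84) were also among them. The natriuretic peptide clearance receptor Npr3 (−2.71) and Npas4 completed the 12.

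Part of these falls was shared by the scrambled hairpin and part was not. Against the empty vector the scrambled libraries were at −2.03 for Lmbrd2, −1.67 for Lnpep and −1.26 for Aif1, but at 0.19 for Npr3 and 0.093 for Doc2b, neither of which passed the test. Tmcc2 was at −0.23 and Chd3 at −0.26 in the scrambled libraries. All 12 genes were outside both controls. With offsets for GC content and transcript length the falls ranged from −2.19 for Lnpep to −3.19 for Npas4.

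Of the 12 largest rises, 9 were outside both controls, and 8 of these lay 0.97 to 3.08 log2 units above the scrambled hairpin. Syde1, a GTPase activating protein of synapse development (chr10:78584502-78591964, GRCm38.p6), was at 24.9, 27.5 and 24.3 CPM in the Dek hairpin libraries and at 2.18, 2.20 and 2.19 CPM in the empty vector libraries (log2FC = 3.55, SE 0.12, FDR = 2.5e-10). The scrambled libraries were at 1.77, 4.32 and 2.98 CPM, near the empty vector. Txnip, an inhibitor of thioredoxin and of glucose uptake (chr3:96557957-96561857), was at 12.8, 15.5 and 11.3 CPM against 1.57, 1.73 and 0.878 CPM (log2FC = 3.26, SE 0.21, FDR = 3.9e-08), and at 4.91, 6.42 and 5.78 CPM, in between, in the scrambled libraries. Scrt2, a neuronal zinc finger repressor (chr2:152081529-152095802), was at 69.6, 84.2 and 74.5 CPM against 11.5, 10.1 and 13.4 CPM (log2FC = 2.71, SE 0.11, FDR = 9.6e-10). Kdelr3, a receptor that returns proteins to the endoplasmic reticulum (2.95), the serotonin receptor Htr3a (2.70), the prolyl hydroxylase Egln3 of the hypoxia pathway (2.61), the prostaglandin reductase Ptgr1 (2.60) and 2010001A14Rik (2.54) made up the rest of the 8. Against the empty vector, Txnip (2.035), Htr3a (1.71), Egln3 (1.13), 2010001A14Rik (0.64) and Scrt2 (0.49) were also called higher with the scrambled hairpin. Syde1 (0.45), Kdelr3 (0.39) and Ptgr1 (0.35) did not pass there.

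The remaining 4 rises were those of Ttr, Tuba1c, H2-D1 and Gm38667. In the scrambled libraries these 4 genes were at 7.20, 5.04, 2.54 and 2.33 against the empty vector. Tuba1c was at 61.9, 65.5 and 63.5 CPM with the Dek hairpin and 2.24, 3.57 and 2.30 CPM with the empty vector, but at 78.1, 89.7 and 97.7 CPM with the scrambled hairpin, so that it fell by 0.48 on the log2 scale against the latter. Reads of tubulin paralogs can be split between near-identical genes by the authors' estimation, which makes its level uncertain. H2-D1, a class I histocompatibility gene, was at 44.7, 45.6 and 54.3 CPM against 5.26, 6.08 and 8.34 CPM, with the scrambled libraries at 45.1, 34.2 and 35.3 CPM. Gm38667, the ninth gene outside both controls, was at 2.68 in the Dek hairpin and 2.33 in the scrambled libraries, a difference of 0.32 that passed the test. Ttr, which encodes transthyretin and is abundant in choroid plexus, had estimated counts of 6, 1 and 1 in the empty vector libraries, 291, 440 and 453 in the scrambled libraries and 1898, 250 and 612 in the Dek hairpin libraries. With so few counts in the empty vector libraries its fitted log2FC (8.42, SE 1.87) is imprecise. The call was lost when any one empty vector replicate was left out (FDR = 0.061 to 0.065), and Ttr did not pass against the scrambled hairpin (FDR = 0.33).

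The genes were then read in 32 lists by function, each against the background of 34% higher and 33.4% lower genes. Members called lower outnumbered those called higher in 22 lists, the reverse held in 9, and 1 was even. By percent higher less percent lower, the highest 5 lists were lysosomal genes, class I presentation genes, p53 targets, respiratory chain subunits and interferon response genes. The lowest 6 were neurofilaments, metabotropic receptors, GABA-A receptors, histone chaperones, immediate early genes and postsynaptic scaffolds. No list was tested as a set.

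**Figure D3:**
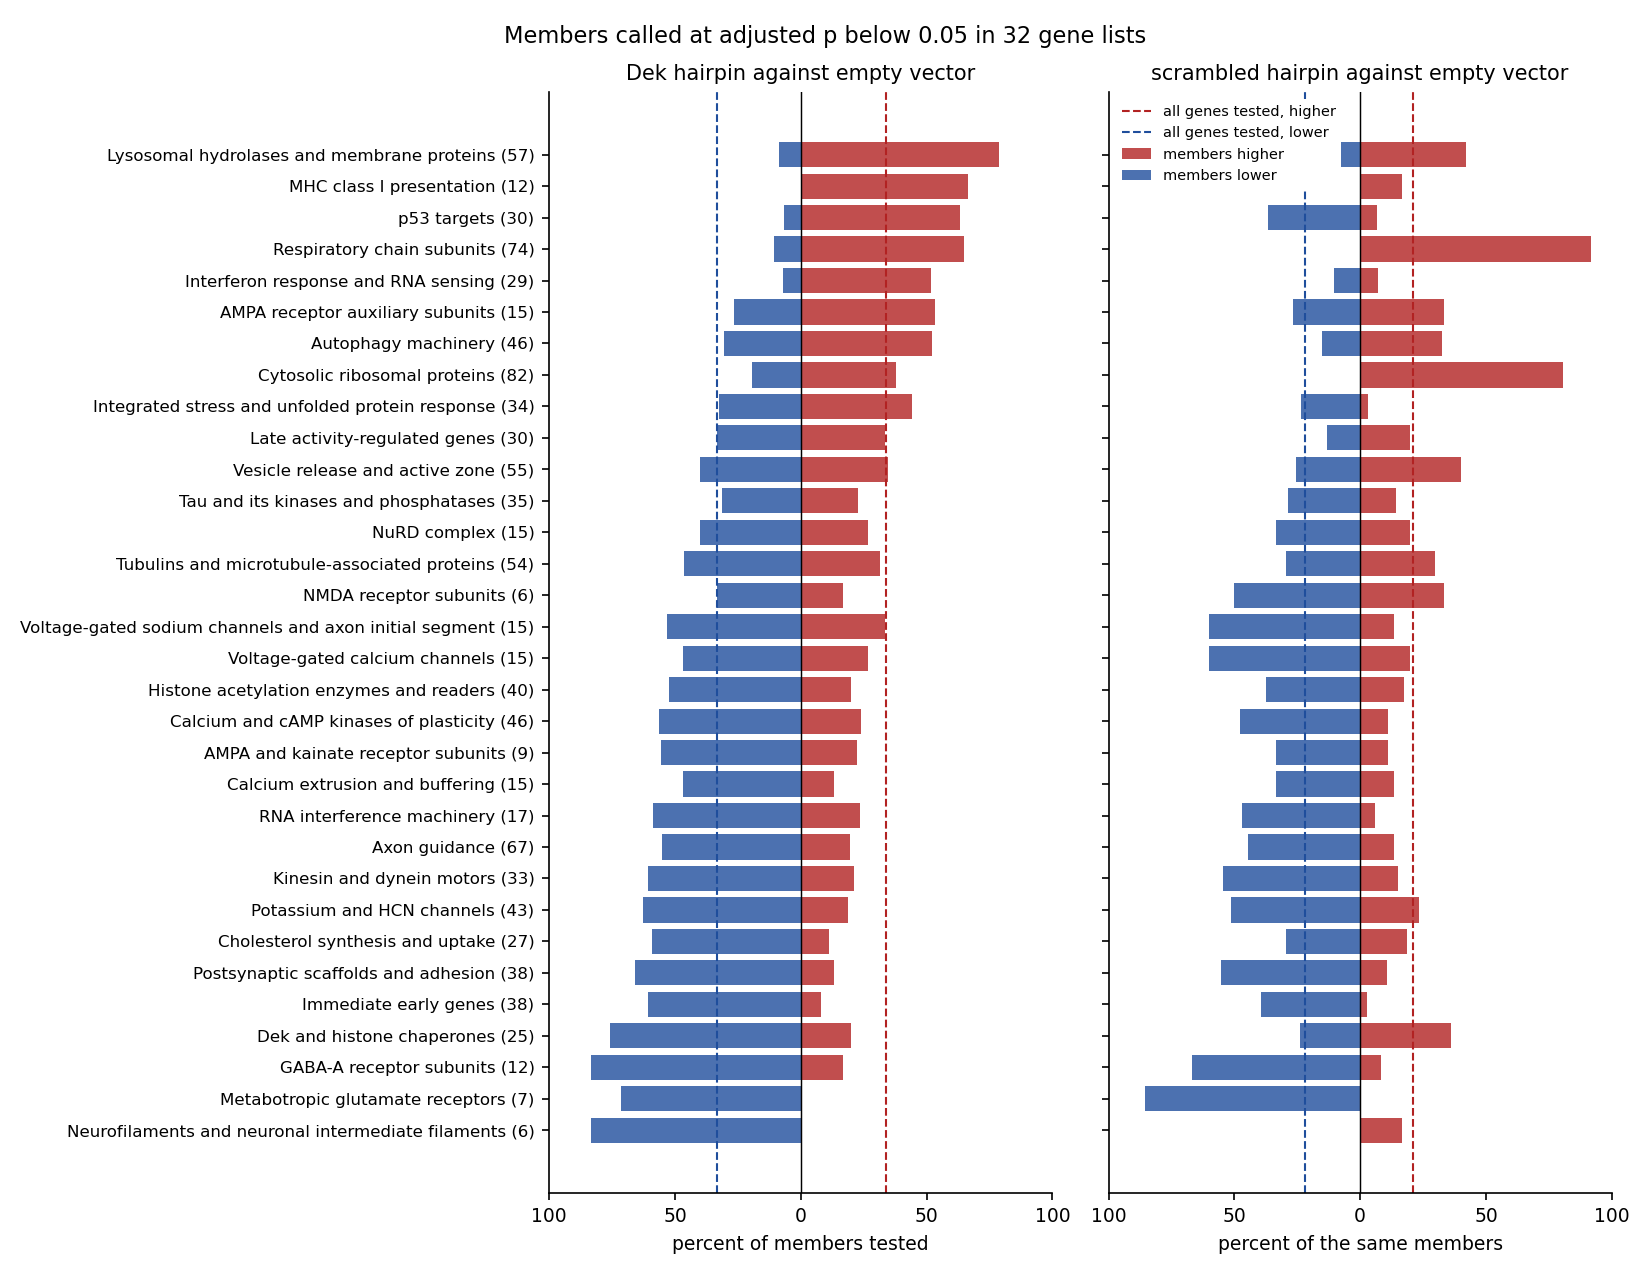
Percent of tested members called higher (bars to the right) and lower (bars to the left) at an FDR below 0.05 in 32 gene lists, for the Dek hairpin (first panel) and the scrambled hairpin (second panel) against the empty vector, with the number of tested members in brackets and dashed lines for all genes. Lysosomal, class I presentation, p53 and respiratory chain genes lie at the top in the first panel and neurofilaments, metabotropic receptors and GABA-A subunits at the bottom, whereas respiratory chain and ribosomal genes lead the second panel.

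Immediate early genes are transcribed within minutes of neuronal activity. Of 38 tested, 23 were lower and 3 higher in the Dek hairpin libraries, with 17 lower beyond 1 and a median log2FC of −0.86 against 0.022 for all genes. Npas4, an activity-dependent transcription factor of neurons (chr19:4984353-5003439, GRCm38.p6), was at 27.6, 18.9 and 27.7 CPM against 217, 216 and 188 CPM (log2FC = −3.05, SE 0.14, FDR = 1.1e-07). It was at 113, 92.9 and 94.8 CPM in the scrambled libraries, between the 2 other groups and without overlap. Ppp1r15a, a stress-induced phosphatase subunit, was at 14.8, 14.4 and 16.1 CPM against 69.4, 70.2 and 72.2 CPM (log2FC = −2.21, SE 0.072, FDR = 1.9e-10), while the scrambled libraries were at −0.028. Klf6, a zinc finger factor, fell by 1.35 and Homer1, whose short form is induced by activity, by 1.43. The 3 higher members were the phosphatase Dusp2 (1.03), the stress factor Atf3 (0.65) and Ier3 (0.54), the last 2 of which did not pass with GC and length offsets. The scrambled libraries had 1 higher and 15 lower (median −0.36) of the same genes, and the Dek hairpin libraries were outside both controls for 1 above and 17 below.

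The cAMP response element TGACGTCA, searched on both strands of the promoter windows of RefSeq (250 bases before to 50 after the gene start, GRCm38.p6), is a motif through which CREB drives many of these genes. It was found in 4 of the 31 immediate early genes with a window (12.9%) and in 401 of 11044 genes tested (3.63%). Of the 17 lower members with a window 1 held it, Ppp1r15a. The 4 matches are shown with their neighbouring bases, capitals marking the motif, at chr7:45526262-45526291 for Ppp1r15a, chr1:134079303-134079332 for Btg2, chr15:79347480-79347509 for Maff and chr17:26508597-26508626 for Dusp1.
Ppp1r15a: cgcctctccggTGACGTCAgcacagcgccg
Btg2: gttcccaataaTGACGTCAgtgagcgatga
Maff: ggctggggcggTGACGTCActgcatgactg
Dusp1: ggtagggcgggTGACGTCAccgcccggtca
Btg2 (0.14), Maff (0.15) and Dusp1 (−0.16) did not pass the test, but Dusp1 passed at −0.43 with GC and length offsets and at −0.30 without Dek hairpin replicate 1, and Btg2 at 0.29 against the mean of both controls.

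Late activity-regulated genes, which follow the immediate early genes by hours, did not move together. Of 30, 10 were higher and 10 lower, with a median of −0.083. The neuronal pentraxin Nptx1 (1.76), the neuropeptide Cck (1.18), the scaffold Grasp (1.23) and the receptor Gpr3 (0.92) rose. The neuropeptide Sst (−1.53), the prohormone convertase Pcsk1 (−1.39) and the activin subunit Inhba (−2.36) fell. For Cck, Pcsk1 and Inhba the Dek hairpin libraries overlapped the scrambled ones.

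Glutamate receptor genes split by class. All AMPA receptor subunits fell, Gria2 furthest, and among kainate receptor subunits Grik1 (−0.30) fell while Grik4 (0.92) and Grik5 (0.37) rose, so that of 9 subunits 5 were lower and 2 higher, or 4 and 4 with GC and length offsets. Gria2, whose product keeps the AMPA receptor impermeable to calcium, was at 153, 132 and 132 CPM against 473, 494 and 498 CPM (log2FC = −1.80, SE 0.063, FDR = 3.1e-10), and at 321, 329 and 333 CPM in the scrambled libraries. Its log2FC shrank to −1.02 with offsets for GC content and transcript length. Gria1 was at −0.45, Gria4 at −0.70 and Gria3 at −0.47, which no longer passed with those offsets (−0.11). Auxiliary subunits that traffic the AMPA receptor went mostly the other way, with 8 higher and 4 lower of 15 (median 0.22), among them the cornichons Cnih2 (0.90) and Cnih3 (0.67) and the TARP gene Cacng5 (0.66). Of 6 NMDA receptor subunits, 1 was higher and 2 lower, a balance that turned to 3 and 2 with library totals and to 2 and 0 with GC and length offsets. The obligatory subunit Grin1 was at 0.43 and Grin2b at −0.72, or −0.028 with GC and length offsets.

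Metabotropic glutamate receptors, which signal through G proteins, were lower for 5 of 7 and higher for 0 (median −1.14). Grm5, the main postsynaptic member of group I, was at 74.0, 66.5 and 62.7 CPM against 195, 195 and 201 CPM (log2FC = −1.53, SE 0.064, FDR = 1.0e-09), with 103, 113 and 114 CPM in the scrambled libraries. Grm7 (−1.75) and Grm8 (−1.52), presynaptic receptors of group III, were also outside both controls. Grm2 (−1.15) fell as well but to the level of the scrambled libraries, which were at −1.40. Grm3 (−0.055) and Grm4 (−0.26) did not pass. In the scrambled libraries there were 0 higher and 6 lower (median −0.84) of the same receptors.

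Subunits of the GABA-A receptor, the main inhibitory chloride channel, were lower for 10 of 12 and higher for 2 (median −0.70). Gabrd, whose subunit serves extrasynaptic receptors and tonic inhibition, was the one with a large rise, at 112, 108 and 104 CPM against 23.7, 25.0 and 27.0 CPM (log2FC = 2.11, SE 0.068, FDR = 1.7e-10), with the scrambled libraries in between at 51.8, 44.2 and 40.9 CPM. Gabrg1 fell to 6.91, 6.86 and 5.38 CPM from 25.6, 27.6 and 29.3 CPM (log2FC = −2.10, SE 0.11, FDR = 8.1e-09), and the scrambled libraries, at 25.4, 25.4 and 25.4 CPM, lay near the empty vector. Gabra2 (−0.77), a synaptic subunit, fell and overlapped the scrambled libraries. With the scrambled hairpin 1 higher and 8 lower (median −0.42) of the 12 were called. With GC and length offsets the Dek hairpin gave 3 higher and 8 lower (median −0.31). Its libraries were outside both controls for 1 subunit above and 4 below.

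Genes of excitability divided by subunit. Pore-forming sodium channel genes fell and genes of beta subunits rose. Scn2a was at 71.7, 69.6 and 76.2 CPM against 274, 261 and 244 CPM (log2FC = −1.83, SE 0.063, FDR = 2.6e-10), and Scn1a (−1.50), Scn8a (−1.32) and Scn3a (−0.72) fell with it. The beta subunit gene Scn3b was at 384, 370.1 and 302 CPM against 197, 192 and 186 CPM (log2FC = 0.89, SE 0.079, FDR = 9.5e-07), and Scn4b (0.84) and Scn2b (0.28) rose. These 7 genes were all outside both controls. With GC and length offsets Scn3a was at −0.068 and no longer passed, and the 6 others kept their direction. Scn4b, at means of 2.00 and 1.11 CPM, did not pass by the DESeq2 Wald test (FDR = 0.061). At the axon initial segment the master scaffold Ank3 (−0.90) and Trim46 (−0.62) fell while the adhesion molecule Nfasc (0.43) rose. Over the list of 15, 8 were lower and 5 higher, against 2 higher and 9 lower (median −0.20) with the scrambled hairpin.

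Of 43 potassium and HCN channel genes, 27 were lower and 8 higher (median −0.41). Kcna1 (−1.61) and Kcna2 (−1.31), axonal channels that limit repetitive firing, Kcnq5 of the M current (−1.45) and Kcnh1 (−1.24) fell. The pacemaker channel Hcn3 (0.75), the calcium-activated channel Kcnn2 (0.79), Kcnab1 (0.76) and the leak channel Kcnk1 (0.62) rose. Of 15 voltage-gated calcium channel genes, 7 were lower and 4 higher (median −0.27, or 0.044 with GC and length offsets), against 3 higher and 9 lower (median −0.45) with the scrambled hairpin. Channels of the N type (Cacna1b, −1.48), R type (Cacna1e, −1.10), L type (Cacna1d, −0.93, and Cacna1c, −0.68) and P/Q type (Cacna1a, −0.75) fell, while the T-type gene Cacna1h (0.40) and the accessory genes Cacnb3 (0.54), Cacna2d2 (0.26) and Cacna2d3 (0.57) rose. Besides Slc8a1, calcium is expelled by the exchanger Slc24a2 (−1.56) and the pumps Atp2b1 (−0.96) and Atp2b2 (−0.85), which fell. In this list of 15 calcium extrusion and buffering genes, the higher members were the buffer Pvalb (2.53) and Ncald (0.54). Against the empty vector the scrambled hairpin gave 10 higher and 22 lower (median −0.26) of the potassium and HCN channel genes.

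Vesicle release genes were nearly balanced, with 19 higher and 22 lower of 55, and 24 and 21 with library totals, against 22 higher and 14 lower (median 0.083) with the scrambled hairpin. The lower members with the smallest FDR were calcium sensors and priming factors: Syt7 was at 56.4, 50.8 and 54.0 CPM against 192, 201 and 213 CPM (log2FC = −1.90, SE 0.063, FDR = 2.2e-10), the active zone scaffold Rims1 at −1.82 and the priming factor Unc13a at −1.57. The higher members changed less, as Napa (0.54), which recycles SNARE complexes, Slc32a1 (0.58), the vesicular GABA transporter, Syngr3 (0.45) and the SNARE gene Vamp2 (0.34, but −0.075 and not passing with GC and length offsets). Postsynaptic scaffold and adhesion genes were lower for 25 of 38 and higher for 5 (median −0.41). Nrxn2, a presynaptic adhesion partner, was at 124, 152 and 159 CPM against 496, 469 and 453 CPM (log2FC = −1.69, SE 0.086, FDR = 1.7e-08), and Lrrc4c (−1.38), Cadm2 (−1.34) and Epb41l1 (−0.82) fell. The exception in size was Homer3, a scaffold of metabotropic receptors, at 54.0, 65.1 and 57.6 CPM against 12.5, 11.4 and 13.2 CPM (log2FC = 2.26, SE 0.094, FDR = 1.0e-09). In the scrambled libraries there were 4 higher and 21 lower (median −0.15) of the postsynaptic genes.

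Kinases and cyclases that carry calcium and cAMP signals were lower for 26 of 46 and higher for 11 (median −0.33). Beside Prkar2b, the calcium-stimulated adenylyl cyclase Adcy1 was at 281, 272 and 250.4 CPM against 744, 689.6 and 666 CPM (log2FC = −1.38, SE 0.059, FDR = 1.3e-09), with 372, 406 and 408 CPM in the scrambled libraries. Camk4, a nuclear kinase that acts on CREB, was at 34.7, 40.0 and 39.4 CPM against 142, 132 and 117 CPM (log2FC = −1.77, SE 0.082, FDR = 2.5e-09), and Adcy5 fell by 1.38. In protein kinase A the regulatory Prkar2b thus fell and the catalytic Prkaca (0.53) rose, as did Adcy2 (0.61), Rap1b (0.60) and Prkce (0.25). Against the empty vector the scrambled hairpin gave 5 higher and 22 lower (median −0.10) of this list.

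Neurofilament genes, whose products set the calibre of axons, fell in the Dek hairpin libraries and stayed near the empty vector in the scrambled ones. Nefm was at 11.3, 11.3 and 13.97 CPM against 57.5, 64.1 and 63.2 CPM (log2FC = −2.32, SE 0.094, FDR = 8.4e-10), with 79.9, 56.9 and 57.1 CPM in the scrambled libraries. Nefl was at 35.9, 30 and 48.8 CPM against 159.5, 169 and 175 CPM (log2FC = −2.12, SE 0.16, FDR = 1.9e-05), with 213, 174 and 164 CPM in the scrambled libraries. The Dek hairpin libraries did not overlap either control in these genes, nor in Nefh (−1.76), Ina (−1.33) and Prph (−0.47), while the progenitor filament Nes (−0.45) did not pass. In all, 5 of 6 were lower and 0 higher (median −1.54), against 1 higher and 0 lower (median 0.17) with the scrambled hairpin.

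Among 54 tubulins and microtubule-associated proteins, 25 were lower and 17 higher (median −0.11). Map1b, which stabilizes microtubules in growing axons, was at 562, 549 and 558 CPM against 1764, 1650 and 1578 CPM (log2FC = −1.57, SE 0.051, FDR = 1.9e-10), and Map9 (−1.68), the severing enzyme Spast (−1.46) and the minus-end protein Camsap2 (−1.31) fell. Map4 (0.48) and the tubulin cofactor Tbcb (0.74) rose. Motors were lower for 20 of 33 and higher for 7: the kinesin heavy chains Kif5a (−1.28) and Kif5b (−1.41) and the dynein chains Dync1li1 (−1.27) and Dync1i2 (−1.21) fell, and the dynactin subunit Dctn1 (0.60), Ndel1 (0.60) and Nde1 (1.29) rose. In the scrambled libraries there were 5 higher and 18 lower (median −0.17) of the motors.

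Axon guidance genes were lower for 37 of 67 and higher for 13 (median −0.22), or 29 and 19 (median −0.05) with GC and length offsets, and the scrambled hairpin gave 9 higher and 30 lower (median −0.17). Rtn4, which encodes Nogo (−1.45), the collapsin response gene Dpysl3 (−1.05), Sema4f (−1.31) and Sema3e (−2.36) fell. The attractant Ntn1 (1.57), Sema5b (1.77), Dpysl4 (0.56) and the semaphorin receptor Nrp1 (0.48) rose. Tau, the microtubule protein encoded by Mapt, was unresolved at −0.021 (SE 0.048, FDR = 0.71) but passed at −0.30 with GC and length offsets, whereas several of its kinases fell. Gsk3a was at 50.2, 51.6 and 50.2 CPM against 217, 204 and 215 CPM (log2FC = −2.05, SE 0.056, FDR = 7.2e-11), with 216, 226 and 217 CPM in the scrambled libraries. Ttbk1, a tau-tubulin kinase, was at 34.3, 34.3 and 35.5 CPM against 137, 141 and 134 CPM (log2FC = −1.97, SE 0.057, FDR = 9.1e-11). Gsk3b (−1.17) and the JNK kinase Mapk10 (−0.90) fell, and the kinases Fyn (0.38) and Csnk1d (0.34) rose. Over the whole list of 35, 11 were lower and 8 higher, against 5 higher and 10 lower (median −0.028) with the scrambled hairpin.

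Most lysosomal genes tested rose. Of 57 hydrolases and membrane proteins, 45 were higher and 5 lower (median 0.57), and 38 above and 3 below were outside both controls. Hexa, a subunit of beta-hexosaminidase, was at 102, 105 and 96.8 CPM against 41.3, 42.6 and 47.9 CPM (log2FC = 1.21, SE 0.069, FDR = 1.2e-08), with 46.6, 44.2 and 41.8 CPM in the scrambled libraries. Grn, which encodes progranulin, was at 160.1, 175 and 158 CPM against 75.0, 70.1 and 69.7 CPM (log2FC = 1.21, SE 0.061, FDR = 4.2e-09). The fucosidase Fuca1 (1.48) and the cholesterol carrier Npc2 (1.00) rose with them. Lamp1, an abundant glycoprotein of the lysosomal membrane, went the other way, at 114, 135 and 147 CPM against 363, 371 and 380.5 CPM (log2FC = −1.48, SE 0.08, FDR = 1.4e-08), with 417, 422 and 433 CPM in the scrambled libraries. The other lower members were Ids (−0.48), Npc1 (−0.30), Atp6ap2 (−0.22) and Atp6v1a (−0.17, or 0.057 with GC and length offsets). The scrambled libraries had 24 higher and 5 lower (median 0.15) of these genes. Autophagy genes were higher for 24 of 46 and lower for 14, against 15 higher and 7 lower (median 0.065) with the scrambled hairpin, with rises in the initiating kinase Ulk1 (0.91), the membrane marker Map1lc3b (0.66) and the fusion factor Stx17 (0.96) and falls in Gabarapl1 (−0.77), Rb1cc1 (−1.08) and the receptors Nbr1 (−0.86) and Tax1bp1 (−0.55).

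Targets of p53, the damage-responsive transcription factor, were higher for 19 of 30 and lower for 2 (median 0.52). Cdkn1a, the cyclin-dependent kinase inhibitor p21, was at 372, 383 and 334 CPM against 103, 117 and 132 CPM (log2FC = 1.64, SE 0.088, FDR = 3.1e-08), with 152, 133 and 132 CPM in the scrambled libraries. Phlda3, an inhibitor of AKT, was at 53.4, 64.0 and 48.0 CPM against 16.0, 14.2 and 15.2 CPM (log2FC = 1.88, SE 0.11, FDR = 1.6e-08), with 15.0, 13.6 and 16.2 CPM in the scrambled libraries. In both genes every Dek hairpin library lay above all 6 controls. Ccng1 (1.01) and Sesn2 (0.90) rose as well, and Pidd1, a scaffold of the caspase-2 complex, was at 2.39. The lower members were the ubiquitin ligase subunit Fbxw7 (−0.97) and the ribonucleotide reductase subunit Rrm2b (−0.57). With the scrambled hairpin the list had 2 higher and 11 lower (median −0.093).

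The integrated stress and unfolded protein responses were mixed, with 15 higher and 11 lower of 34 (median 0.034), and 13 of each without the filter on low counts. With the scrambled hairpin there were 1 higher and 8 lower (median −0.14). The serine synthesis enzyme Phgdh (1.10), the chaperone partner Sdf2l1 (1.58) and the cystine transporter Slc7a11 (1.54) rose. Slc7a11 was at 2.09 with the scrambled hairpin, and the Dek hairpin libraries were not outside both controls. The phosphatase subunits Ppp1r15a and Ppp1r15b (−0.96), Edem1 (−1.22) and the chaperone Calr (−0.77) fell.

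Interferon response and RNA sensing genes were higher for 15 of 29 tested out of 50 and lower for 2 (median 0.61). Ifi27 was at 30.5, 27.6 and 24.9 CPM against 5.65, 5.12 and 5.82 CPM (log2FC = 2.33, SE 0.11, FDR = 2.8e-09), with 14.1, 10.6 and 13.2 CPM, in between, in the scrambled libraries. The double-stranded RNA sensor kinase Eif2ak2 was at 16.0, 17.1 and 18.5 CPM against 8.28, 9.05 and 9.71 CPM (log2FC = 0.94, SE 0.11, FDR = 6.5e-06), and the scrambled libraries, at 8.23, 9.05 and 9.53 CPM, were near the empty vector. Irf1 rose by 1.88 from a mean of 1.10 CPM. Oasl2 was at 2.04, 2.34 and 2.29 CPM against 0.559, 0.179 and 0.165 CPM. It was so low with the empty vector that it passed the filter only through the group where it was high, and such members raise the count of higher genes and the median of this list, of which 21 of 50 members were not tested. Stat2, which carries the interferon signal to the nucleus, was lower, at 18.4, 19.1 and 16.4 CPM against 61.9, 56.8 and 55.9 CPM (log2FC = −1.68, SE 0.081, FDR = 2.8e-09), as was the RNA editing enzyme Adar (−0.19, or −0.016 with GC and length offsets). The scrambled libraries had 2 higher and 3 lower (median 0.039) of these genes. Class I presentation followed, with 8 of 12 higher and 0 lower (median 0.72), against 2 higher and 0 lower (median 0.15) with the scrambled hairpin: beside H2-D1 these were B2m, the light chain (0.84), the peptide transporters Tap1 (0.81) and Tap2 (0.60), Tapbp (0.57), H2-T23 (1.71) and the immunoproteasome subunits Psmb8 (1.18) and Psmb9 (0.66). Tap2 and Psmb9 did not pass by the DESeq2 Wald test or with GC and length offsets. With those offsets the class I list had 7 higher and 2 lower (median 0.54). Class I genes are close paralogs, so their estimated counts are uncertain.

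The interferon-stimulated response element, searched as a pair of GAAA runs with NN between them on both strands of the same promoter windows, was found in 8 of 23 interferon and sensing genes with a window (34.8%), in 2 of 10 class I genes (20%) and in 376 of 11044 genes tested (3.4%). Of the higher members 4 of 13 and 2 of 7 held it, and Stat2, of the 2 lower members with a window, held it too. The matches in these called genes are shown, capitals marking the motif on either strand. They lie at chr4:40239804-40239833 for Ddx58, chr17:78882535-78882564 for Eif2ak2, chr7:140955988-140956017 for Ifitm2, chr12:26456553-26456582 for Rsad2, chr2:122147538-122147567 for B2m, chr17:36032806-36032835 for H2-T23 and chr10:128270266-128270295 for Stat2 of GRCm38.p6.
Ddx58: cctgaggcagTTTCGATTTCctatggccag
Eif2ak2: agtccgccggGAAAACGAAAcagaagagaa
Ifitm2: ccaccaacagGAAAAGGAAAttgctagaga
Rsad2: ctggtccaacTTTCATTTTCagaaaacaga
B2m: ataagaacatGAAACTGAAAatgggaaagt
H2-T23: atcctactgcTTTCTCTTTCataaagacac
Stat2: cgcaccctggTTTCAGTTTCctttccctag
Ddx58, which encodes the RNA sensor RIG-I, was at 0.87, Ifitm2 at 0.83 and Rsad2 at 1.20. Rsad2 did not pass by the DESeq2 Wald test (FDR = 0.082) or without Dek hairpin replicate 1 or empty vector replicate 1 or 2, and Ifitm2 did not with the replicate block and GC and length offsets (FDR = 0.059).

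**Figure D4:**
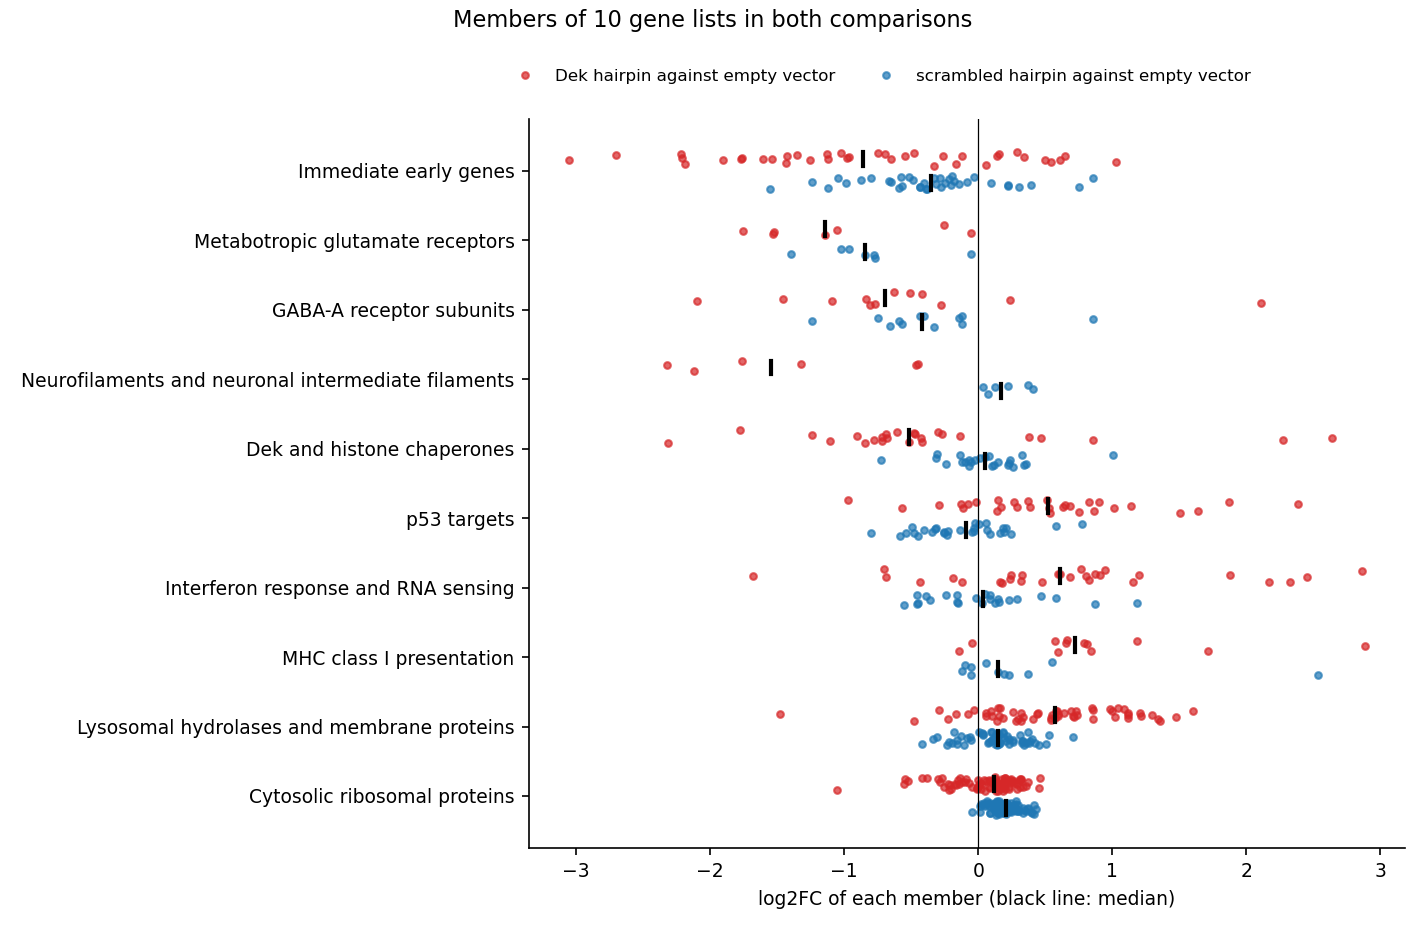
The log2FC of each member of 10 gene lists against the empty vector, for the Dek hairpin (red) and the scrambled hairpin (blue), with black lines for the medians. Immediate early genes have medians of −0.86 and −0.36, neurofilaments −1.54 and 0.17, p53 targets 0.52 and −0.093 and lysosomal genes 0.57 and 0.15.

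Chromatin genes were read in 3 lists. In the list of Dek and histone chaperones, 19 of 25 were lower and 5 higher (median −0.52), against 9 higher and 6 lower (median 0.053) with the scrambled hairpin. Atrx, the remodeller that deposits histone H3.3 at heterochromatin, was at 64.4, 52.6 and 54.5 CPM against 201, 200.5 and 189 CPM (log2FC = −1.77, SE 0.072, FDR = 9.0e-10). The chaperones Anp32b (−1.24) and Nap1l1 (−0.90) fell, and so did Daxx (−1.11), the partner of Atrx. Both genes of H3.3, H3f3a (0.38) and H3f3b (0.86), and the replication-coupled chaperones Asf1b (2.64) and Chaf1b (2.27) rose. Despite its size, the rise of Asf1b was not among the 12 largest, because it missed their rule on mean level (5 CPM) and overlap.

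In the NuRD complex, which joins chromatin remodelling to histone deacetylation, all 3 ATPases fell, Chd3 as given above, Chd5 at 102, 91.6 and 97.4 CPM against 331, 309 and 312 CPM (log2FC = −1.70, SE 0.058, FDR = 2.6e-10) and Chd4 by 0.71. Hdac2 (−0.93), Gatad2b (−1.77) and Mbd3 (−0.19) fell, while Gatad2a (0.92), Mta2 (0.57), Mbd2 (0.60) and Cdk2ap1 (1.45) rose. The complex as a list therefore held 6 lower and 4 higher of 15, or 5 and 6 with library totals, against 3 higher and 5 lower (median 0.022) with the scrambled hairpin. Histone acetylation enzymes and readers were lower for 21 of 40 and higher for 8 (median −0.27, or −0.13 with GC and length offsets). With the scrambled hairpin 7 were higher and 15 lower (median −0.018). The bromodomain reader Brd3 (−1.57), the co-repressor Ncor1 (−1.15) and the acetyltransferase Kat6a (−1.43) fell, and the methyltransferase Setd7 (1.33) and the deacetylase Sirt2 (0.52) rose.

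Metabolic lists behaved unlike one another. Genes of cholesterol synthesis and uptake were lower for 16 of 27 and higher for 3 (median −0.35), against 5 higher and 8 lower (median 0.0013) with the scrambled hairpin. Sqle, an oxygen-dependent enzyme of the pathway, was at 173, 174 and 146 CPM against 478, 493 and 476 CPM (log2FC = −1.54, SE 0.068, FDR = 1.4e-09). The scrambled libraries were at −0.10 for this gene. The sterol carrier Stard4 (−2.01) and the regulator Srebf2 (−0.71) fell, and Scap (0.35) and Ebp (0.47) rose.

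Respiratory chain subunits were higher for 48 of 74 and lower for 8 (median 0.29), but 18 and 22 (median 0.0082) with GC and length offsets. The scrambled libraries had 68 higher and 0 lower (median 0.34), and the Dek hairpin libraries were outside both controls for 6 above and 9 below. Cox5a (0.64) and Uqcrfs1 (0.53) rose, while Ndufv2 (−0.78) and the ATP synthase gene Atp5f1 (−0.71) fell although the scrambled libraries were at 0.26 and 0.13. Cytosolic ribosomal protein genes were higher for 31 of 82 and lower for 16 (median 0.12), a direction that turned to 4 higher and 56 lower with GC and length offsets and to 17 and 26 against the mean of both controls. Again the scrambled libraries had 66 higher and 0 lower (median 0.21). Both families are short transcripts, and their genes can share reads with pseudogenes.

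Components of the pathway that processes hairpins were lower for 10 of 17 and higher for 4 (median −0.22), but 6 and 7 with GC and length offsets. Ago2, the slicing Argonaute, was at 38.1, 33.4 and 33.9 CPM against 81.4, 81.0 and 81.3 CPM (log2FC = −1.20, SE 0.065, FDR = 8.1e-09), and the scrambled libraries, at 45.1, 42.7 and 42.0 CPM, were also below the empty vector. Ago3 (−1.31) fell to the level of the scrambled libraries. Dicer1 was at 39.8, 39.2 and 40.3 CPM against 73.8, 70.0 and 70.9 CPM (log2FC = −0.84, SE 0.06, FDR = 8.3e-08), with 63.6, 59.5 and 63.1 CPM in the scrambled libraries. Its partner Tarbp2 (−0.72) fell, and the scaffold Tnrc6a (0.55) and Snd1 (0.34) rose. Against the empty vector the scrambled hairpin gave 1 higher and 8 lower (median −0.15) of this list.

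The neuronal label was checked against markers of neurons and of the other cells such cultures can hold. Summed over 9 pan-neuronal markers, levels were 5950 to 6490 CPM in the Dek hairpin, 7090 to 7420 CPM in the empty vector and 7080 to 7280 CPM in the scrambled libraries, and 5 were lower and 2 higher. Snap25 (0.12) and Tubb3 (−0.12) did not pass, although with GC and length offsets both did, at 0.15 and −0.44, Snap25 also with library totals (0.20) and Tubb3 also against the mean of both controls (−0.22), and Elavl4 (−1.15) fell. Of 9 markers of glutamatergic neurons 5 were lower and 1 higher, with Neurod6 at −1.68, and the vesicular glutamate transporters Slc17a7 at −0.19, which passed only with GC and length offsets (−0.53), and Slc17a6 at 0.43. Of 10 markers of GABAergic neurons 7 were higher and 2 lower, and with the scrambled hairpin 8 higher and 1 lower (median 0.36), the Dek hairpin libraries being outside both controls for 3 above and 2 below. The homeobox gene Dlx2 was at 42.3, 53.5 and 42.1 CPM against 10.1, 10.0 and 10.5 CPM (log2FC = 2.18, SE 0.11, FDR = 3.7e-09), and Dlx5 (2.11), Dlx1 (1.60) and the synthesis gene Gad1 (0.40) rose, while Lhx6 (−1.16) and Sst (−1.53) fell.

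Sums of glial markers spread widely between wells. Astrocyte markers summed to 512 to 885 CPM in the Dek hairpin, 456 to 587 CPM in the empty vector and 549 to 844 CPM in the scrambled libraries, and 2 of 10 (Aldh1l1, 0.87, and Slc1a3, 0.97) were higher and 0 lower. Both calls were lost without Dek hairpin replicate 2 or 3 or without any one empty vector replicate (FDR up to 0.14), as was that of Olig1. Markers of oligodendrocyte precursors summed to 92.6 to 201, 52.5 to 83.4 and 62.7 to 111 CPM in the same order, with Olig1 (1.41) and Olig2 (1.31) higher of 5 tested. Oligodendrocyte markers summed to 82.8 to 90.0 CPM against 44.9 to 45.9 CPM, without overlap, with Cnp (1.53) and Mag (1.65) higher, Mog (−1.47) lower and Mbp (−0.10) not called, although it passed at −0.34 with GC and length offsets and at 0.59 against the mean of both controls. Microglial markers were nearly absent: 6 of 9, Cx3cr1, C1qa, C1qb, C1qc, P2ry12 and Tmem119, did not pass the filter. All 9 together summed to at most 10.7 CPM in any of these libraries, and Aif1 alone had a mean of 8.85 CPM with the empty vector. Of the 3 microglial markers tested, 1 was higher and 1, Aif1, was lower, with log2FC from −2.84 to 1.14. Of 8 endothelial and mural markers 4 were tested, with 1 higher (Rgs5, 0.64) and sums up to 18.2 CPM, and of 6 fibroblast markers 5, with 1 lower (Dcn, −0.44) and sums up to 16.7 CPM, called higher in 1 member instead with library totals or against the mean of both controls. Of 9 markers of radial glia and dividing progenitors 2 were higher (Vim, 0.62, lost when 5 of the 6 libraries were left out in turn, and Pcna, 0.28) and 0 lower. The part of these cell markers in the results for other genes was not tested.

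The heptamer AAGAGGA of the Dek site had emerged in an earlier analysis of these silencing libraries as the one whose genes were lower, so its pattern here is a description and no independent support. It corresponds to the seed match of a guide that begins 3 bases inward of the designed start, for which the match would be AGGATCT. Against these were set the matches of the scrambled hairpin and of 7 neuronal miRNAs, whose mature sequences (RefSeq, GRCm38.p6) are shown with the seed, bases 2 to 8, in capitals, since each pairs with a heptamer of its own and no 2 share a seed.
let-7a-5p: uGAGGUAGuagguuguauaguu
miR-9-5p: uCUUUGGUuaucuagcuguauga
miR-128-3p: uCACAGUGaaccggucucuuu
miR-26a-5p: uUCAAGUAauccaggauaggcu
miR-29a-3p: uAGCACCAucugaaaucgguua
miR-181a-5p: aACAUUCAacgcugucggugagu
miR-137-3p: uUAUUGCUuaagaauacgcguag

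Of 13325 genes tested with an annotated 3′ UTR, 1912 (14.3%) held AAGAGGA there. Their median log2FC was −0.30, against 0.058 for genes without it, a difference of −0.35 (−0.32, −0.33 and −0.34 for the 3 Dek hairpin libraries taken singly, SD 0.013). Genes called lower made up 52.2% of those with it and 31% of those without, and genes called higher 22.5% and 36.1%. In the scrambled libraries the same difference was −0.091, and between the Dek hairpin and scrambled libraries −0.23. By number of copies, the median log2FC was 0.058 for the 11413 genes with none, −0.26 for 1586 with 1 copy, −0.48 for 257 with 2 and −0.60 for 69 with 3 or more, and the share lower was 31%, 49.7%, 63.4% and 68.1%. Long UTRs hold more heptamers of any kind, and the difference shrank to −0.13 with GC and length offsets. The medians by number of copies were then 0.025, −0.086, −0.184 and −0.215. In 3 groups of genes by UTR length the difference without offsets was −0.39, −0.27 and −0.25 from the shortest to the longest.

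**Figure D5:**
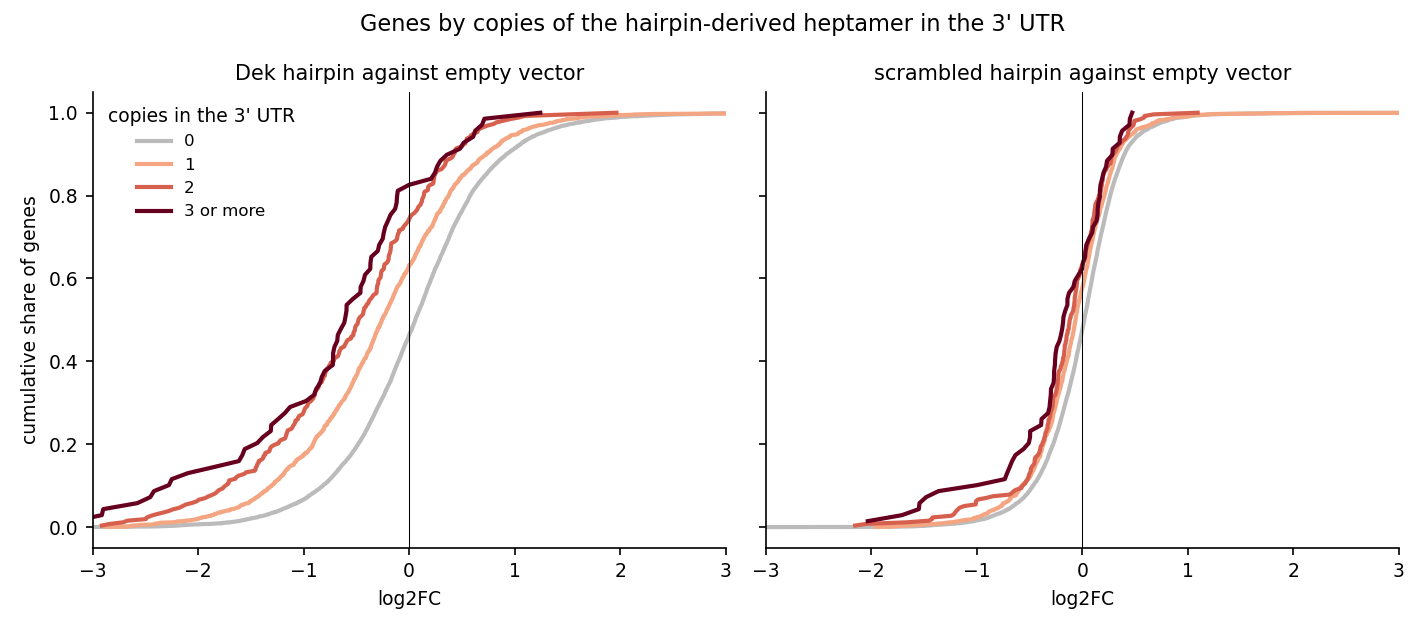
Cumulative share of genes by log2FC against the empty vector, for genes with 0, 1, 2 and 3 or more copies of AAGAGGA in the 3′ UTR, with the Dek hairpin in the first panel and the scrambled hairpin in the second. The curves separate by copy number in the first panel, with medians of 0.058, −0.26, −0.48 and −0.60, and less in the second, with medians of 0.019, −0.064, −0.12 and −0.18.

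Other heptamers also had lower medians, by less. The difference was −0.14 for AGGATCT, −0.11 and −0.14 for the 2 matches of the scrambled hairpin, and among miRNA matches −0.27 for miR-26a-5p, −0.23 for miR-181a-5p, −0.17 for miR-137-3p, −0.12 for miR-29a-3p, −0.084 for miR-9-5p, −0.082 for miR-128-3p and −0.068 for let-7a-5p. With GC and length offsets each of these lay between 0.015 and 0.12 over all genes with a UTR, while that of AAGAGGA stayed below 0. Within groups by UTR length some of these also fell below 0 with offsets, at the lowest −0.136 (miR-26a-5p, shortest UTRs). The Dek site heptamer was at −0.377, −0.234 and −0.173 there, from shortest to longest. In coding sequence with offsets all of these were below 0, from −0.0018 (miR-29a-3p) to −0.083 (a match of the scrambled hairpin). The Dek site heptamer was at −0.255 there. The heptamer was present in 6 of the 11 largest falls with an annotated UTR (Lmbrd2, Tmcc2, Chd3, Alg10b, Doc2b and Npr3) and in 1 of 10 of the largest rises (Txnip). Over all genes with a UTR it was held by 22% of lower and 9.44% of higher genes. Among the lists it lay in 11 of the 26 lower and 0 of the 11 higher kinases and cyclases, in 10 of 37 lower and 0 of 13 higher axon guidance genes, and in 8 of 25 lower and 3 of 8 higher potassium and HCN channel genes with a UTR. It lay in 1 of 23 lower immediate early genes, in 1 of 19 lower histone chaperone genes and, among lysosomal genes, in 9 of 44 higher and 1 of 5 lower members, Lamp1. Gria2 and Kif5a held 2 copies, Gsk3a, Gsk3b, Camk4 and Nefl 1 copy, and Slc8a1, Prkar2b, Npas4, Nefm and Map1b none. Whether pairing with the heptamer lowered any of these transcripts was not tested.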

How the data were processed

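RNA sequencing of 9 libraries of cultured mouse EC neurons was used, 3 each with the Dek hairpin, the scrambled hairpin and the empty vector, and 3 with Dek overexpression only where libraries were compared. The authors deposited estimated counts, one value per gene and library. Their processing notes name Salmon, DESeq2 and mm10, without versions. Of the values 38.6% were not whole numbers, and all were rounded. The 9 rows without a symbol, 0.0125% to 0.0162% of counts, were left out. Library totals lay between 15679567 and 18555472, which limits what can be seen of genes at a few counts, and counts of genes that share sequence are uncertain.

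Genes kept by filterByExpr were tested by edgeR 4.0.16 (R 4.3.3), whose quasi-likelihood fit with robust dispersions held the 6 libraries compared, after TMM scaling. FDR stands for the Benjamini-Hochberg adjusted p over all genes tested, and a gene was called below 0.05. Positive log2FC means higher in the first group named, the spread given is over wells, and sums over markers are of CPM. The test was also run on simulated data with 200 genes changed. Alternatives were size factors and the Wald test of DESeq2 1.42.0, library totals, limma-voom (limma 3.58.1), other filters, all 12 libraries, the mean of both controls, the replicate number as a block, offsets for GC content and transcript length (mgcv 1.9.3), and each library left out in turn. In every fit the spread of a gene was pooled over the groups fitted, also with 2 wells left in a group. Leaving libraries out of, and other scalings of, the count of genes outside both controls were added after the data had been seen.

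Named genes are Dek, the 12 largest rises and falls (called, averaging 5 CPM or more, groups not overlapping), and, per list, up to 4 members per direction with the smallest FDR, while lists no longer than 20 may have every member named. Pidd1, Daxx, Atp6v1a, Ddx58, Ifitm2 and Rsad2 were named after their values were seen, as were members that did not pass. Some genes that this rule would name are not reported here. The members, the 43 lists and the heptamers were chosen with earlier results of these data known. Transcripts of GENCODE vM21 (GRCm38) matched 98.8% of genes. Promoters and miRNAs were those of RefSeq (GRCm38.p6). Python 3.11.15 with pandas 2.3.3, numpy 2.4.6 and matplotlib 3.10.9 wrote the tables and drew the figures.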

Additional observations from a re-analysis of the deposited data

How the results depend on the processing

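The count of genes called against the empty vector, 9633, lay between 8291 and 9787 under the other scalings, tests, filters, library sets and offsets, and was 2424 (1214 higher and 1210 lower) when a log2FC beyond 1 was also asked. Leaving out one library at a time gave 8608 to 9848 calls here, 4697 to 6497 between the controls and 6719 to 7850 against the scrambled hairpin. It gave a Dek log2FC of −2.42 to −2.23, 7333 to 8347 genes outside both controls, and 22 to 23 lists with more members lower than higher. Same-numbered Dek hairpin and empty vector wells did not deviate together (r = −0.23, −0.058 and −0.087), so the numbers do not pair the wells of these 2 groups. With the replicate number as a replicate block 9036 genes were called against the empty vector, 4512 higher and 4524 lower. Same-numbered Dek hairpin and scrambled wells had r of 0.33, 0.15 and 0.088, and Dek hairpin well 2 with scrambled well 3 had 0.155. The replicate block gave 8614 calls against the scrambled hairpin in place of 7787. Whether the numbers pair wells there was not tested. Same-numbered scrambled and empty vector wells had r of −0.23, −0.028 and −0.12, so the numbers do not pair those wells either. Between the controls GC and length offsets alone gave 4636 calls and the replicate block alone 4892, in place of 6070. The replicate block with those offsets gave 3359 (1747 higher and 1612 lower). The heptamer difference in the 3′ UTR, −0.35, was −0.13 with GC and length offsets, and in coding sequence it was −0.41, or −0.26 with those offsets.

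Of the 241 called genes named, 214 kept direction and call under every alternative. Signs turned with GC and length offsets, alone and with the replicate block, for Atp6v1a (0.057 and 0.057), Vamp2 (−0.075 and −0.079) and Maff (−0.15 and −0.16, and −0.030 to 0.31 with one library left out). Other reversals were of small values: Grm3 was at 0.018 with library totals, 0.32 against the mean of both controls and −0.39 to 0.14 with one library left out, Mapt at 0.052 with library totals, 0.00012 with at least 5 CPM, 0.048 against the mean of both controls and −0.060 to 0.0017 with one library left out, and Btg2 at −0.0056 to 0.20 with one library left out. Against the mean of both controls Mbp was at 0.59 and Slc17a7 at 0.037. The cause of these changes was not tested.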
